A study of Mus musculus with 12 samples.

Results

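The enzyme complexes of oxidative phosphorylation were followed in epithelial structures of the growing mouse mammary gland. Members were all probes whose platform symbol begins with Ndufa, Ndufb, Ndufc, Ndufs, Ndufv, Uqcr, Atp5 or Cox4 to Cox8, together with Sdha, Sdhb, Sdhc and Sdhd. Cox8b and Cox7a1 were left out by the same rule. This gave 73 probes of the 17589 on the array, which stand for 71 of its 12913 named genes. Complex I had 37 probes, complex II 4, complex III 6, complex IV 13 and complex V 13. Sdha and Uqcrq had 2 probes each, which are given apart by probe number. The letters also took in 7 assembly factors of complex I (Ndufaf1 to Ndufaf7), a pseudogene symbol (Ndufs5-ps), the acyl carrier Ndufab1 and Cox7a2l, a factor that joins complexes III and IV into supercomplexes. Ndufa4, named as a complex I subunit and since assigned to complex IV, was counted with complex I. Cyc1, the cytochrome c1 of complex III, does not match the letters and is not a member, so the members are not every measured subunit. Subunits encoded by mitochondrial DNA were not analysed here.

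Each of 12 arrays with 2 colours compared an epithelial structure, in Cy5, with distal stroma that held no epithelium, in Cy3. On 6 arrays the structure was the terminal end bud, the club-shaped growing tip of a pubertal duct, and on 6 it was the mature duct behind it. All tissue was dissected from glands of 5-week-old mice carrying a B-actin-GFP reporter, a fluorescent marker used to see the gland during dissection. The labels give no strain, no number of animals behind the arrays and no word on pooling of the stroma. P-values therefore measure the spread among arrays, which may be technical. Stroma was the other channel of each array and is taken as 1 control sample. If it was a single pool its spread is left out of every test, and if each array had its own it is part of the spread among arrays. A value below is the log2 ratio of the structure over stroma for 1 probe. It does not give a level, and no dye swap separates the dyes from the tissues.

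Complex I takes electrons from NADH and complex II takes them from succinate, and both pass them to ubiquinone. Complex III carries them on to cytochrome c and complex IV to oxygen, while complexes I, III and IV pump protons across the inner mitochondrial membrane. Complex V, the ATP synthase, lets the protons back and makes ATP. The fat pad around the growing ducts is rich in adipocytes, and brown adipocytes are known for their many mitochondria and for Ucp1, which lets protons back without making ATP.

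Many genes of these complexes are known to be switched on by the transcription factors NRF1, GABP (also called NRF2) and YY1. RefSeq promoter windows on GRCm38.p6, from 250 bases before to 50 bases after the start, were matched to 60 of the 71 genes. The NRF1 motif, GCGCA and GCGC with any 1 base between them, searched on both strands, was in the windows of 14 of these 60 genes (23.3%), against 9.03% of the 10228 genes of the array that had a window and 4.60% of all promoters in the table. The GABP letters CCGGAAG were found for 15 genes (25%), against 15.6% of the array's genes and 8.86% of all promoters. The YY1 letters AANATGGCG were found for 7 genes (11.7%), against 4.48% of the array's genes and 2.38% of all promoters. No match to 1 of these motifs overlapped a match to another in the members' windows. These shares describe letters only. For NRF1 the median log2 ratio in the terminal end bud was -0.59 over 15 probes with the motif and -1.08 over 46 without. In the duct it was -0.71 with and -0.72 without. For GABP the medians were -1.08 with and -0.99 without in the terminal end bud, and -0.55 and -0.77 in the duct. For YY1 they were -1.45 with and -0.99 without in the terminal end bud, and -0.93 and -0.71 in the duct. No test compared these medians. The 250 bases before the start are printed for the 3 members with the lowest ratios or steadiest differences that had a match. They are also printed for Atp5g1, the only member that passed as higher than stroma in both structures in limma. Capitals mark the matched letters, and all 4 lie on the minus strand, written 5′ to 3′. The Sdha window (chr13:74350241-74350490) has the NRF1 letters 98, 55 and 10 bases before the start. The Cox6b1 window (chr7:30626115-30626364) has the GABP letters at 28 bases as their reverse complement, and 1 of the Atp5j windows (chr16:84834977-84835226) has them at 61 bases with the YY1 letters at 88. The Atp5g1 window (chr11:96075632-96075881) has none of the 3 motifs, which says only that these letters are not in it.
Sdha: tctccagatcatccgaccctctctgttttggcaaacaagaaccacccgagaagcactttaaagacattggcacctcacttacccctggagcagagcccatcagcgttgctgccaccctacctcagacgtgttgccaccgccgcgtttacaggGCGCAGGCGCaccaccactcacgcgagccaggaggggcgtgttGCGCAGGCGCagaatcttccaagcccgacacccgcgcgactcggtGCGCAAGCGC
Cox6b1: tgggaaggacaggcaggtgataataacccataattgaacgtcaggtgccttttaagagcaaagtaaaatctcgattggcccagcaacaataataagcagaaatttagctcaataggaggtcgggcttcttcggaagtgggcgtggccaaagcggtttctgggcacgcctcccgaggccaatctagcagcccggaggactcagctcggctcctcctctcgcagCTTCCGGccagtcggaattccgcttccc
Atp5j: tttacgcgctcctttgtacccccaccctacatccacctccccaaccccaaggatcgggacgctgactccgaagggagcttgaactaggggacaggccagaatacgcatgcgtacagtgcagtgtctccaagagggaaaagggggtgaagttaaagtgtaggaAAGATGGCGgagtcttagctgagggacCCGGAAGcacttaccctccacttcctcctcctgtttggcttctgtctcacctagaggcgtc
Atp5g1: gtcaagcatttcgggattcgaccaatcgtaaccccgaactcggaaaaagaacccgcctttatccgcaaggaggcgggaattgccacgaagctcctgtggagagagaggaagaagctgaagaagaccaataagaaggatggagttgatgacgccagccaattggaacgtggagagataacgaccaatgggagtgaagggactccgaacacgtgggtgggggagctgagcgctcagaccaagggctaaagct

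In the terminal end bud, 58 of the 73 members were lower than in stroma at an adjusted p under 0.05 in limma, where 20.4% of all probes were lower. Only Ndufb4, Uqcrb and Atp5g1 were higher, where 23.2% of all probes were higher, and 12 members did not pass. The members' median log2 ratio was -0.93, against 0.01 for all probes, and their values ran between -3.04 for Cox6c and 1.09 for Atp5g1. In the mature duct, 53 members were lower than in stroma, where 12.2% of all probes were lower. Atp5g1 was the only member that passed as higher there, where 16% of all probes were higher, and 19 members did not pass. The duct median was -0.65, against 0.02 for all probes.

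**Figure D1:**
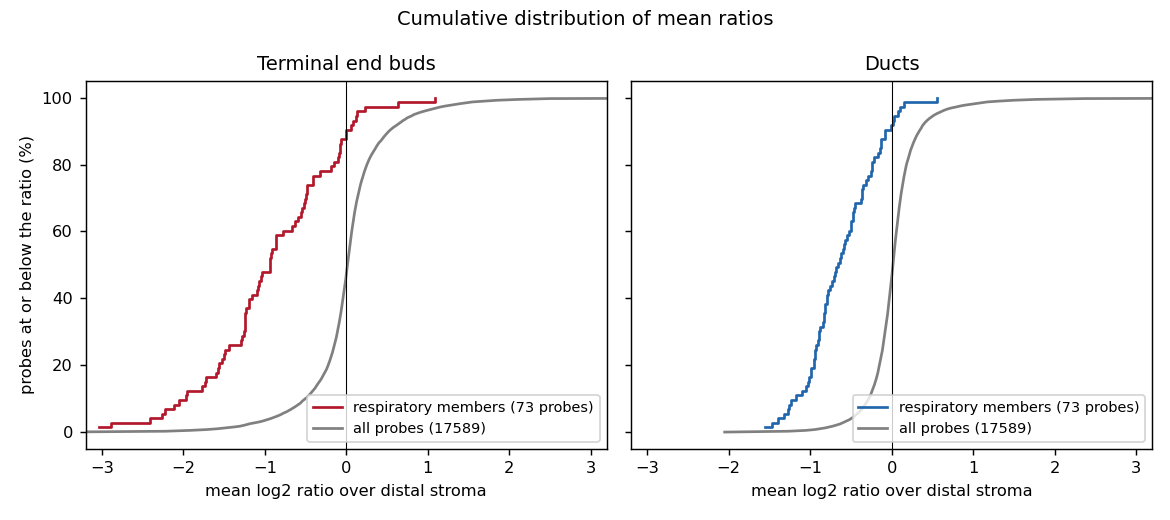
Cumulative share of probes (%, vertical axis) by mean log2 ratio over stroma (horizontal axis), for the 73 members (coloured) and all 17589 probes (grey), in the terminal end bud (left) and the mature duct (right). The members' curve lies left of the curve of all probes, with medians of -0.93 in the terminal end bud and -0.65 in the duct.

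The members' median was below 0 on every array. In the terminal end bud 59 members were below 0 on all 6 arrays, as were 19% of all probes, and in the duct 54 members were, as were 13.9% of all probes. A log2 ratio of -1 or lower with an adjusted p under 0.05 was found for 35 members in the terminal end bud, against 3.48% of all probes, and for 12 members in the duct, against 0.603% of all probes. Taken array by array, the median over the members lay between -1.24 and -0.67 on the terminal end bud arrays and between -0.91 and -0.41 on the duct arrays. The 2 sets of array medians overlapped. Each pair of neighbouring slides held 1 array of each structure. The terminal end bud median was the lower in 6 of 6 pairs as deposited, with differences between -0.45 and -0.075. It was also the lower in 6 of 6 with arrays scaled to a common median absolute deviation, by -0.24 to -0.056. After quantile normalization of the ratios between arrays it was the lower in 2 of 6. No label says that neighbouring slides belong together. Median ratios of all probes were between 0.01 and 0.023 per array.

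**Figure D2:**
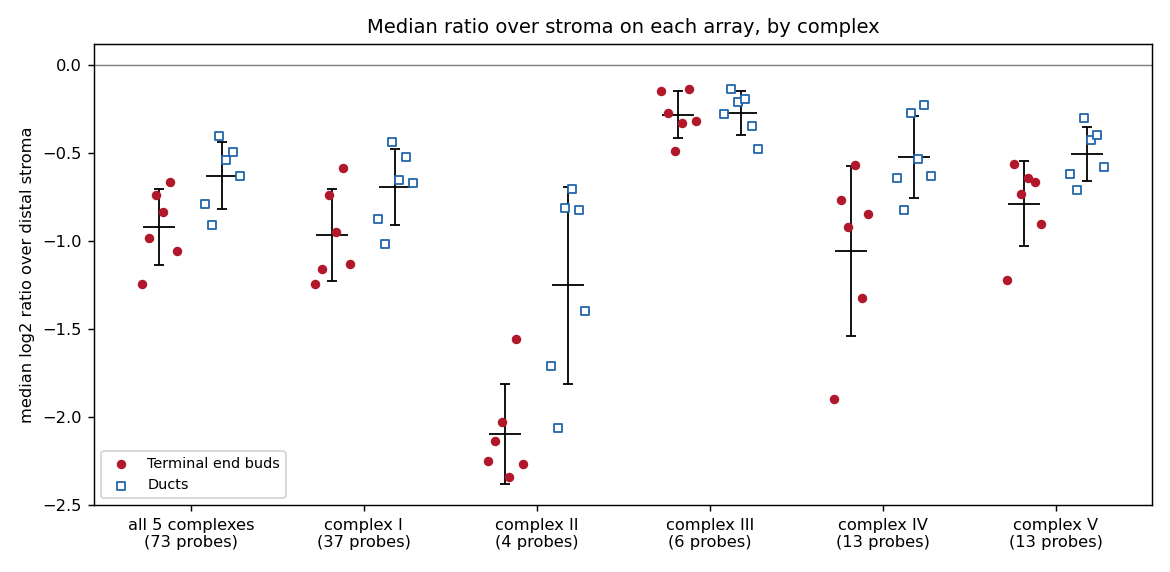
Median log2 ratio over stroma on each array (vertical axis) by complex, with 6 terminal end bud arrays (filled) left of 6 duct arrays (open) and bars for the mean ± SD over arrays. Complex II has the lowest group means in both structures and complex III lies nearest to 0.

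Marker lists of cell types were read beside the members. Adipocyte and endothelial markers went below stroma as the members did, and the other lists did so in part or not at all. Of all probes, 20.4% were lower and 23.2% higher in the terminal end bud. In the duct, 12.2% were lower and 16% higher. All 9 measured brown adipocyte markers were lower in the terminal end bud and 8 in the duct, with array medians between -3.01 and -2.45 in the terminal end bud and between -2.53 and -0.97 in the duct. Among them Ucp1 had a mean ratio of -3.54 ± 0.38 in the terminal end bud and -1.82 ± 0.97 in the duct. The brown adipocyte list was drawn up with Cox8b and Cox7a1, which the rule left out of the members, and with the coactivator Ppargc1a. It is therefore not independent of genes of the respiratory chain. White adipocyte markers were lower for 8 of 9 genes in the terminal end bud and for 3 of 9 in the duct, with array medians between -1.75 and -0.51 and between -0.50 and -0.24 in that order. Endothelial markers were lower for 7 of 7 genes in the terminal end bud and for 5 of 7 in the duct, with array medians between -1.58 and -1.17 in the terminal end bud and between -0.59 and -0.16 in the duct. All 8 epithelial markers, keratins and junction proteins, were higher in both structures, with array medians of 3.63 to 5.04 in the terminal end bud and 3.25 to 3.91 in the duct. Macrophage and lymphocyte markers were lower for 2 of 4 genes in the terminal end bud and for 0 of 4 in the duct, where limma gave 1 lower and 1 higher at an unadjusted p under 0.05. Fibroblast markers were higher for 3 of 8 genes in the terminal end bud and for 5 of 8 in the duct. Striated muscle markers, among which the member Cox6a2 is also counted, were lower for 2 of 11 genes and higher for 1 of 11 in each structure. Their lower counts are close to the shares of all probes. The part of these cell types in the members' ratios was not tested. In bulk tissue, fewer cells of a type and less RNA per cell cannot be told apart.

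**Figure D3:**
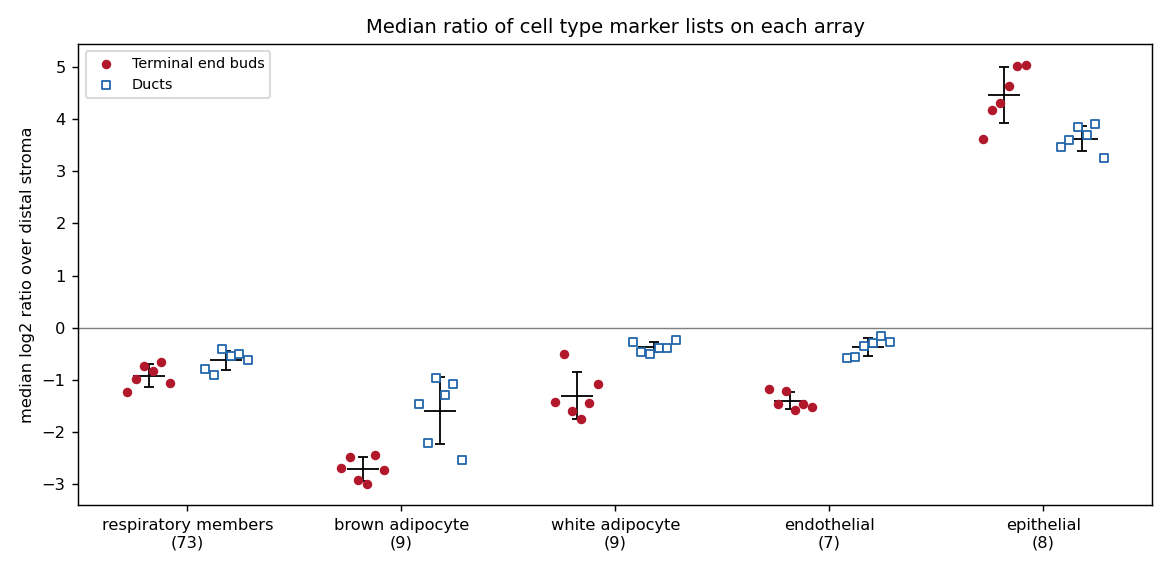
Median log2 ratio over stroma on each array (vertical axis) for the members and for 4 marker lists (numbers of genes in brackets), with terminal end bud arrays left of duct arrays and bars for the mean ± SD over arrays. Brown adipocyte, white adipocyte and endothelial markers lie below 0 on all 12 arrays and epithelial markers lie above 3 on all 12.

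In complex I, 32 of 37 members were lower in the terminal end bud and 30 in the duct, with medians of -0.94 and -0.73 in that order. The 6 probes of the NADH-oxidising module were lower in both structures, with medians of -1.37 in the terminal end bud and -0.99 in the duct. Ndufs1, the largest iron-sulfur subunit of that module, had lowest, median and highest values of -2.67, -2.05 and -1.69 on terminal end bud arrays, and of -1.48, -1.14 and -0.57 on duct arrays. All 12 values were below 0, and every terminal end bud value lay below every duct value. The means were -2.12 ± 0.36 in the terminal end bud (SD, n = 6, adjusted p = 6.72e-09) and -1.10 ± 0.30 in the duct (adjusted p = 1.35e-05). Ndufv1, which binds NADH and the flavin, averaged -1.24 ± 0.44 in the terminal end bud and -1.27 ± 0.42 in the duct, a difference well inside the spread of either group. Of the 6 subunits of the ubiquinone-reducing module, 4 were lower in each structure, with medians of -1.05 in the terminal end bud and -0.80 in the duct. Ndufa9, a subunit of that module at the junction with the membrane arm, averaged -0.09 ± 0.12 in the terminal end bud and -0.01 ± 0.25 in the duct and passed in neither.

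The membrane arm, which pumps the protons, had 14 of 15 probes lower in the terminal end bud and 14 of 15 lower in the duct. Ndufb3, an accessory subunit of that arm, had lowest, median and highest values of -2.46, -2.06 and -1.61 on terminal end bud arrays, and of -1.33, -0.92 and -0.51 on duct arrays. The groups did not overlap, and all values were below stroma. Its means were -2.05 ± 0.32 in the terminal end bud (adjusted p = 8.21e-09) and -0.94 ± 0.33 in the duct (adjusted p = 4.85e-05). Ndufb7, another accessory subunit, averaged -1.77 ± 0.38 in the terminal end bud and -1.40 ± 0.36 in the duct, the lowest complex I mean in the duct. Ndufb8, used in many laboratories as an antibody marker of assembled complex I, averaged -1.20 ± 0.33 in the terminal end bud and -0.37 ± 0.35 in the duct. Its duct call (adjusted p = 0.0398) did not hold without duct array 6 (mean -0.24, adjusted p = 0.144), among 5 such arrays. Ndufb4 was the exception of the arm, with a mean of 0.23 ± 0.28 in the terminal end bud (adjusted p = 0.034) and 0.07 ± 0.06 in the duct (adjusted p = 0.562). Its terminal end bud mean rested on array 4, at 0.80 where the other 5 were at most 0.19, and was 0.12 without it (adjusted p = 0.0819).

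The 7 complex I assembly factors, which build the enzyme and are not part of it, had medians nearer to 0, of -0.48 in the terminal end bud and -0.37 in the duct. Of these, 5 were lower in the terminal end bud and 4 in the duct. Ndufaf5 averaged 0.13 ± 0.15 in the terminal end bud and -0.08 ± 0.33 in the duct and passed in neither. The pseudogene symbol Ndufs5-ps, whose probe may share sequence with Ndufs5, averaged -0.86 ± 0.40 in the terminal end bud and -0.46 ± 0.30 in the duct. Its duct call (adjusted p = 0.0158) was lost without duct array 1 (adjusted p = 0.058) or without duct array 2 (adjusted p = 0.0618).

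**Figure D4:**
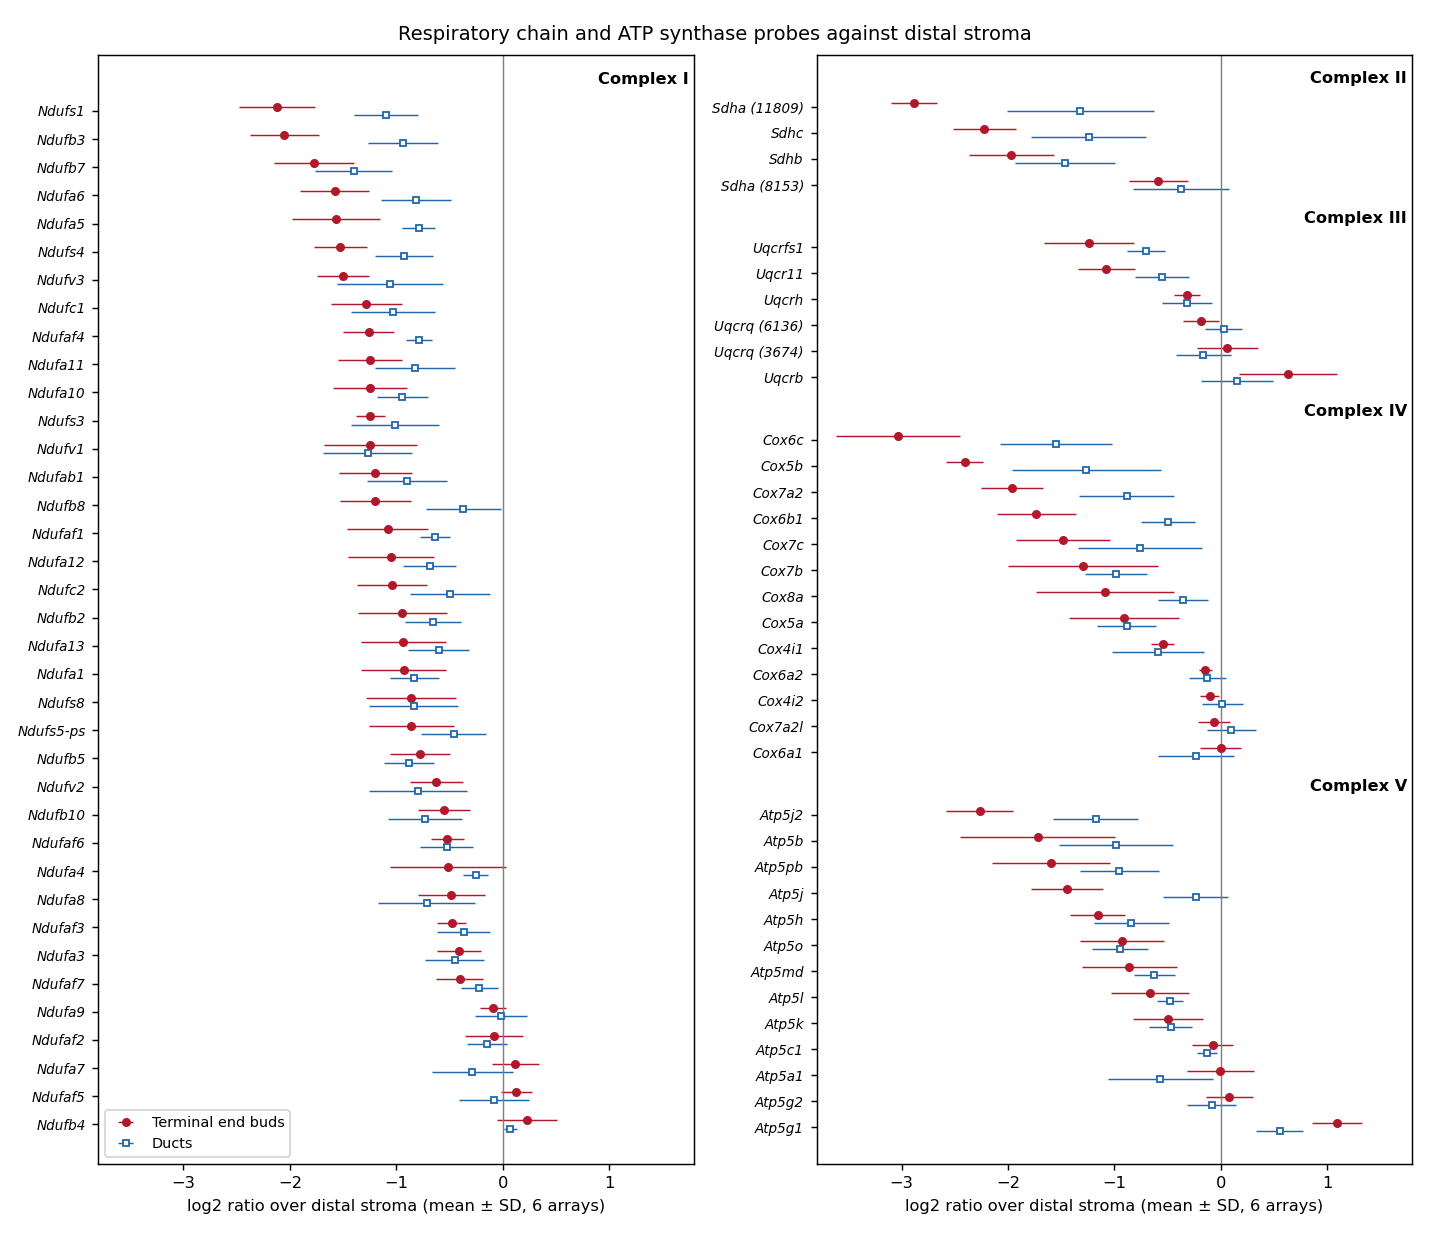
Log2 ratio over stroma (horizontal axis) of every member probe by complex, as mean ± SD over 6 arrays, with the terminal end bud (filled) above the duct (open) and probe numbers where a gene has 2 probes. The means of most members lie left of 0 in both structures, and Atp5g1 lies right of 0 in both, at 1.09 in the terminal end bud and 0.55 in the duct.

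Complex II, which is also an enzyme of the citric acid cycle, had the lowest median of the 5 complexes in both structures. All 4 probes were lower in the terminal end bud and 3 in the duct, with medians of -2.10 and -1.28 in that order. Sdha, the flavoprotein that oxidises succinate, was measured by 2 probes that differed. Probe 11809 had lowest, median and highest values of -3.27, -2.83 and -2.66 on terminal end bud arrays, and of -2.43, -1.14 and -0.74 on duct arrays. The groups did not overlap, and duct array 2 was the lowest duct value. Its means were -2.88 ± 0.22 in the terminal end bud (adjusted p = 1.62e-08) and -1.32 ± 0.69 in the duct (adjusted p = 9.02e-05). Probe 8153 averaged -0.59 ± 0.28 in the terminal end bud (adjusted p = 0.0024) and -0.38 ± 0.45 in the duct (adjusted p = 0.0518). Sdhb, the iron-sulfur subunit, averaged -1.97 ± 0.40 in the terminal end bud and -1.47 ± 0.47 in the duct. Sdhc, a membrane anchor that binds haem and ubiquinone, averaged -2.22 ± 0.30 in the terminal end bud and -1.24 ± 0.54 in the duct. Both genes passed in both structures.

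Among the members, those of complex III lay closest to stroma. No member probe stood for Uqcrc1 or Uqcrc2. Cyc1, the cytochrome c1 of complex III, does not match the letters and is given below with the carriers. Its ratio was further below 0 than the median of these probes in both structures. Of its 6 probes, 4 were lower and 1 higher in the terminal end bud, and 3 were lower in the duct, with medians of -0.25 in the terminal end bud and -0.24 in the duct. Uqcrfs1, the Rieske iron-sulfur protein that takes electrons from ubiquinol, averaged -1.24 ± 0.42 in the terminal end bud (adjusted p = 9.98e-07) and -0.70 ± 0.18 in the duct (adjusted p = 0.000512). Uqcr11, a small accessory subunit, averaged -1.08 ± 0.27 in the terminal end bud and -0.55 ± 0.25 in the duct and was lower in both. Uqcrh, the hinge protein beside cytochrome c1, averaged -0.32 ± 0.12 in the terminal end bud and -0.32 ± 0.24 in the duct and was lower in both. Uqcrb, a small subunit near the ubiquinone site, went the other way, with lowest, median and highest values of -0.18, 0.70 and 1.15 on terminal end bud arrays, and of -0.20, 0.08 and 0.74 on duct arrays. Values above and below 0 occurred in both structures and the groups overlapped. Its means were 0.63 ± 0.46 in the terminal end bud (adjusted p = 0.00247) and 0.15 ± 0.34 in the duct (adjusted p = 0.495). The probes of Uqcrq, another small subunit, gave 0.06 ± 0.29 (probe 3674) and -0.19 ± 0.17 (probe 6136) in the terminal end bud. They gave -0.16 ± 0.26 (probe 3674) and 0.03 ± 0.18 (probe 6136) in the duct. Only probe 6136 in the terminal end bud passed (adjusted p = 0.0489), and that call was lost without any 1 of 9 arrays, for instance without terminal end bud array 3 (mean -0.12, adjusted p = 0.18).

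In complex IV, cytochrome c oxidase, 9 of 13 members were lower in the terminal end bud and 8 in the duct, with medians of -1.09 and -0.59 in that order. Cox6c, a small membrane subunit, had the lowest mean of all members in both structures. Its lowest, median and highest values were -3.89, -2.87 and -2.47 on terminal end bud arrays, and -2.54, -1.36 and -1.06 on duct arrays. The ranges met only at duct array 2, the lowest duct value. The means were -3.04 ± 0.58 in the terminal end bud (adjusted p = 2.1e-08) and -1.55 ± 0.53 in the duct (adjusted p = 4.58e-05). Cox7a2, the form of subunit 7a found in most tissues, averaged -1.96 ± 0.29 in the terminal end bud and -0.89 ± 0.45 in the duct. Cox6b1, a subunit on the side of the intermembrane space, averaged -1.73 ± 0.37 in the terminal end bud and -0.50 ± 0.26 in the duct. Cox7b, a small membrane subunit, averaged -1.30 ± 0.71 in the terminal end bud and -0.99 ± 0.29 in the duct. These 3 genes were lower in both structures. Cox8a, the general form of subunit 8, averaged -1.09 ± 0.65 in the terminal end bud (adjusted p = 0.000119) and -0.35 ± 0.23 in the duct (adjusted p = 0.152).

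Some complex IV subunits have a general form and a form of particular tissues or conditions. Cox4i1, the general form of subunit 4, averaged -0.55 ± 0.10 in the terminal end bud (adjusted p = 0.0013) and -0.59 ± 0.43 in the duct (adjusted p = 0.00158). Cox4i2, a form known from lung and from low oxygen, averaged -0.11 ± 0.09 in the terminal end bud and 0.01 ± 0.20 in the duct and passed in neither. Cox5b averaged -2.41 ± 0.18 in the terminal end bud and -1.26 ± 0.70 in the duct, while Cox5a averaged -0.91 ± 0.52 in the terminal end bud and -0.89 ± 0.27 in the duct. Both are matrix-side subunits and both were lower in both structures. Cox6a1, the general form, averaged 0.00 ± 0.19 in the terminal end bud and -0.24 ± 0.36 in the duct, and the heart and muscle form Cox6a2 averaged -0.15 ± 0.06 in the terminal end bud and -0.13 ± 0.18 in the duct. Neither passed in either structure, and nor did Cox7a2l, with -0.07 ± 0.15 in the terminal end bud and 0.10 ± 0.23 in the duct. Differences between genes were not tested, since each probe's ratio is its own.

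In the ATP synthase, 9 of 13 members were lower and 1 was higher in each structure, with medians of -0.86 in the terminal end bud and -0.57 in the duct. Atp5j2, subunit f of the membrane part, had lowest, median and highest values of -2.64, -2.34 and -1.75 on terminal end bud arrays, and of -1.73, -1.15 and -0.65 on duct arrays. The groups lay next to each other without overlap. Its means were -2.27 ± 0.31 in the terminal end bud (adjusted p = 7.37e-09) and -1.18 ± 0.40 in the duct (adjusted p = 1.48e-05). Atp5b, the catalytic beta subunit, averaged -1.72 ± 0.73 in the terminal end bud and -0.99 ± 0.54 in the duct. Atp5pb, subunit b of the stalk that holds the catalytic head still, averaged -1.60 ± 0.55 in the terminal end bud and -0.95 ± 0.37 in the duct. Both were lower in both structures. Atp5a1, the alpha subunit of the same head, averaged 0.00 ± 0.31 in the terminal end bud (adjusted p = 0.985) and -0.57 ± 0.49 in the duct (adjusted p = 0.0101). Its difference between the structures, 0.57, did not pass (adjusted p = 0.08).

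Atp5g1 encodes the c subunit of the proton-driven ring, and its mature protein is also made from Atp5g2. Its lowest, median and highest values were 0.73, 1.08 and 1.37 on terminal end bud arrays, and 0.38, 0.47 and 0.99 on duct arrays. All 12 values were above 0, and the groups overlapped only at duct array 2, the highest duct value. The means were 1.09 ± 0.24 in the terminal end bud (adjusted p = 1.87e-07) and 0.55 ± 0.22 in the duct (adjusted p = 0.00033). Atp5g2 averaged 0.08 ± 0.22 in the terminal end bud and -0.09 ± 0.23 in the duct and passed in neither. Atp5j, the coupling factor F6 of the stalk, had lowest, median and highest values of -1.89, -1.29 and -1.15 on terminal end bud arrays, and of -0.62, -0.19 and 0.10 on duct arrays. The groups did not overlap, and the duct values reached stroma. Its means were -1.45 ± 0.34 in the terminal end bud (adjusted p = 1.98e-07) and -0.24 ± 0.31 in the duct (adjusted p = 0.161).

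Distal stroma was the other channel for both structures, so their difference compares terminal end bud with duct if that stroma was 1 pool. If each array had its own, differences among the stroma samples also enter it. As deposited, 17 members were lower in the terminal end bud than in the duct, where 10.4% of all probes were lower, and Atp5g1 alone was higher, where 8.32% of all probes were higher. With the ratios quantile normalized between arrays, 2 members were lower and 3 were higher, below the shares of all probes, 7.16% lower and 5.57% higher. The split and its excess over all probes therefore depend on the scaling. The members' median difference was -0.25 as deposited, -0.10 with arrays scaled to a common median absolute deviation and 0.07 after quantile normalization. Terminal end bud arrays had wider ratios over all probes, with SDs of 0.535 to 0.635, than duct arrays, with SDs of 0.380 to 0.484. Scaled to a common median absolute deviation, 6 members were lower and 0 higher in limma at an adjusted p under 0.05. The 6 members are 8.22%, close to the 8.55% of all probes that were lower, and 6.05% of all probes were higher. At an unadjusted p under 0.05 in limma, 15 members were lower and 3 higher. These unadjusted counts have no share of all probes beside them, so no excess can be read from them. Cox6b1 and Atp5j were lower under all 4 scalings, which were the values as deposited, median centring, the common deviation and quantile normalization. Median centring adds little to the values as deposited. Array medians of all probes were only 0.01 to 0.023, and it gave the same 17 lower and 1 higher. As deposited, 6 of 9 brown adipocyte, 5 of 9 white adipocyte and 6 of 7 endothelial markers were also lower in the terminal end bud than in the duct, and 3 of 8 epithelial markers were higher and 1 lower. Their part in the members' differences was not tested.

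With the values as deposited, 10.4% of all probes were lower in the terminal end bud than in the duct. By complex, the members lower were 7 of 37 in complex I, 2 of 4 in complex II and 2 of 6 in complex III. They were 4 of 13 in complex IV and 2 of 13 in complex V. The differences of Sdha (probe 11809), Cox6c and Cox6b1 were the largest in size. Sdha probe 11809 differed by -1.56 (adjusted p = 0.000723) as deposited and by -0.72 (adjusted p = 0.147) after quantile normalization. Under the common median absolute deviation it differed by -1.15 (adjusted p = 0.0318). The other Sdha probe, 8153, differed by -0.21 (adjusted p = 0.513) as deposited and by 0.01 (adjusted p = 0.982) after quantile normalization. For Cox6c the difference was -1.48 (adjusted p = 0.00187) as deposited and -0.53 (adjusted p = 0.344) after quantile normalization. Cox6b1 had lowest, median and highest values of -2.07, -1.84 and -1.22 on terminal end bud arrays, and of -0.86, -0.50 and -0.21 on duct arrays, with no overlap. Its difference was -1.23 (adjusted p = 0.000163) as deposited and -0.80 (adjusted p = 0.00587) after quantile normalization. For Atp5j it was -1.21 (adjusted p = 0.000216) as deposited and -0.88 (adjusted p = 0.00737) after quantile normalization.

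Other subunits with an adjusted p under 0.05 as deposited were Cox5b (-1.14), Ndufb3 (-1.11), Atp5j2 (-1.09), Cox7a2 (-1.07), Ndufs1 (-1.02), Sdhc (-0.98), Ndufb8 (-0.83), Uqcrfs1 (-0.54), Uqcr11 (-0.52), Ndufa5 (-0.78), Ndufa6 (-0.76) and Ndufs4 (-0.60), with the assembly factor Ndufaf4 (-0.47). After quantile normalization none of these 13 passed in limma and Ndufaf4 changed sign, to 0.03 (adjusted p = 0.923). Under the common median absolute deviation, Ndufb3 (-0.84, adjusted p = 0.0177), Ndufb8 (-0.66, adjusted p = 0.0137) and Ndufs1 (-0.72, adjusted p = 0.0477) passed in limma. The rest of the 13 did not. Uqcrfs1 lost its call as deposited when any 1 of 7 arrays was left out, for instance terminal end bud array 1 (difference -0.40, adjusted p = 0.0608). In 8 members every terminal end bud value lay below every duct value, as in 5.79% of all probes, namely Ndufaf4, Ndufb3, Ndufs1, Sdha (probe 11809), Cox6b1, Cox7a2, Atp5j and Atp5j2. The reverse order held for 0 members and for 4.42% of all probes. The 3 members called higher after quantile normalization were Ndufv1 (0.70), Atp5o (0.56), a stalk subunit, and Ndufb5 (0.55), a membrane arm subunit. Atp5g1 differed by 0.54 as deposited (adjusted p = 0.00772) and by 0.27 after quantile normalization (adjusted p = 0.189).

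**Figure D5:**
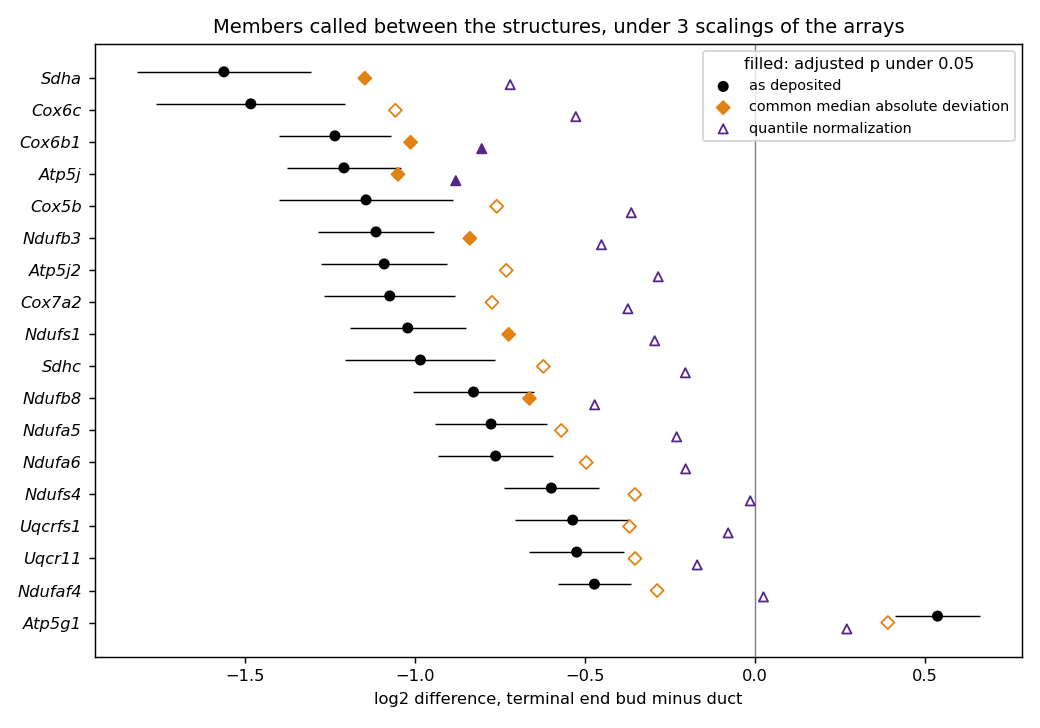
Difference of mean log2 ratios, terminal end bud minus duct (horizontal axis), for the 18 members that passed as deposited (black, with standard error bars), and under a common median absolute deviation and quantile normalization, with filled points for an adjusted p under 0.05. The points move towards 0 under both scalings. Quantile normalization leaves Cox6b1 and Atp5j filled and puts Ndufaf4 right of 0.

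Slide numbers ran from 190 to 203 and both structures were spread over them. On the arrays up to slide 193, 2 of each structure, the members' median was -1.12 in the terminal end bud and -0.84 in the duct, with 52 and 46 members lower in that order, against 13.1% and 6.19% of all probes. On the arrays from slide 196 on, 4 of each structure, the median was -0.82 in the terminal end bud and -0.53 in the duct, with 56 and 49 members lower in that order, against 17.4% and 9.02% of all probes. The ratios were below stroma in both sets of slides, and lower in the earlier one. Terminal end bud minus duct gave 11 members lower and 1 higher on the earlier slides, where 3.66% of all probes were lower and 2.16% higher. It gave 19 lower and 2 higher on the later ones, where 8.12% of all probes were lower and 5.62% higher. These counts are of the values as deposited.

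Genes that serve the complexes without matching the letters of the members, and the complex III subunit Cyc1, were read as 3 further lists. Their counts stand against the same shares of all probes. These are 20.4% lower and 23.2% higher in the terminal end bud, and 12.2% lower and 16% higher in the duct. Of the 34 measured assembly factors and electron carriers, 27 were lower and 2 higher in the terminal end bud, and 24 were lower and 1 higher in the duct. Their medians were -0.53 in the terminal end bud and -0.37 in the duct. Cycs, the cytochrome c that links complexes III and IV, averaged -1.75 ± 0.66 in the terminal end bud and -0.60 ± 0.34 in the duct, and the difference of -1.15 passed as deposited (adjusted p = 0.00699). Cyc1, the cytochrome c1 of complex III, averaged -1.15 ± 0.35 in the terminal end bud and -0.91 ± 0.39 in the duct. Etfdh, which feeds electrons of fatty acid oxidation into ubiquinone, averaged -2.22 ± 0.31 in the terminal end bud and -1.58 ± 0.34 in the duct. Atpif1, the inhibitor of the ATP synthase, was higher in both structures, with 2.14 ± 0.42 in the terminal end bud and 1.23 ± 0.53 in the duct.

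Among 17 measured regulators of mitochondrial biogenesis, 9 were lower and 4 higher in the terminal end bud, and 8 were lower and 3 higher in the duct. The higher counts are close to the shares of all probes in both structures. Ppargc1a, a coactivator that is also among the brown adipocyte markers, averaged -1.70 ± 0.47 in the terminal end bud and -1.23 ± 0.37 in the duct. Its relative Ppargc1b averaged -1.32 ± 0.52 in the terminal end bud and -0.76 ± 0.45 in the duct, whereas the third relative, Pprc1, averaged 1.20 ± 0.11 in the terminal end bud and 0.71 ± 0.16 in the duct. All these passed. Of the factors whose motifs were searched above, Nrf1 averaged 0.24 ± 0.21 in the terminal end bud and 0.19 ± 0.15 in the duct, Yy1 0.26 ± 0.24 in the terminal end bud and 0.09 ± 0.16 in the duct, and both passed in the terminal end bud alone. For the GABP subunits, Gabpa averaged -0.73 ± 0.31 in the terminal end bud and -0.22 ± 0.11 in the duct, and Gabpb1 0.37 ± 0.28 in the terminal end bud and 0.36 ± 0.10 in the duct. Gabpa passed in the terminal end bud alone and Gabpb1 in both structures.

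The 27 measured genes of protein import and the outer membrane had medians of -0.36 in the terminal end bud and -0.31 in the duct. Of these, 15 were lower and 3 higher in the terminal end bud, and 14 were lower and 1 higher in the duct. Vdac1, the outer membrane channel, averaged 0.11 ± 0.17 in the terminal end bud and -0.33 ± 0.19 in the duct, and Vdac3 averaged 0.08 ± 0.18 in the terminal end bud and 0.02 ± 0.09 in the duct. Hspd1, the matrix chaperone, was lower in both structures, with -1.21 ± 0.27 in the terminal end bud and -0.70 ± 0.18 in the duct. Tomm20, an import receptor, averaged 0.08 ± 0.24 in the terminal end bud and 0.00 ± 0.09 in the duct and passed in neither. No test compared these lists with the members.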

How the data were processed

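Arrays with 2 colours measured total RNA of terminal end buds or mature ducts (Cy5) against distal stroma (Cy3), per the labels. The authors deposited 1 table of normalized ratios, read here as log2 of structure over stroma. The effect of background correction and normalization on the ratios is unknown, since these steps and the scanner were not given in the sources used here. Ratios were too wide for base 10, base 2 is the usual choice and a natural logarithm is possible. Cy5 over Cy3 was taken as the direction, with keratins above 0. Gene symbols came from the platform annotation, in which 14136 probes had 1 symbol, 13 had several and 3440 were unnamed. Of 129 probes with a missing value, 0 were members. The number of arrays, 6 per structure, limits the precision.

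The deposited ratios were fitted with limma 3.58.1 in R 4.3.3 (lmFit and eBayes, 2 group means over 12 arrays, two-sided, Benjamini-Hochberg over all 17589 probes, threshold 0.05). The steps were tested on simulated data. Replicate numbers name arrays in the order of their records. Members named with values were, per complex, the lowest 3 and highest 2 means in each structure, up to 3 with the largest passing difference, members above stroma and paired forms of subunits. Others named by role or by a passing difference were chosen after their values were seen. Members and lists were chosen with earlier results of these data known. Alternatives were other scalings, variance models, array weights, slide terms, probe filters, genes in place of probes, a minimum difference of 0.5 and each array left out.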

Additional observations from a re-analysis of the deposited data

Results flagged for a closer look

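In 5 of 158 sets of 6 values, 1 array stood far from the other 5 by Dixon's criterion, which chance gives in about 5% of sets. Ndufab1, the acyl carrier, was -1.85 on terminal end bud array 6, where the next lowest was -1.19. Ndufb4 was 0.80 on terminal end bud array 4, where the next highest was 0.19. Uqcrh was 0.16 on duct array 2, where the next highest was -0.36. Atp5g1 was 0.99 on duct array 2, where the next highest was 0.56. Atp5h, subunit d of the stalk, was -0.67 on terminal end bud array 5, where the next highest was -1.18.

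The ratio over stroma differed between terminal end bud and duct for 18 members, by the limma test of that difference on the values as deposited. The lower members were 17, where 10.4% of all probes were lower, and 1 was higher, where 8.32% of all probes were higher. The differences, terminal end bud minus duct, were -1.11 for Ndufb3, -0.83 for Ndufb8, -1.02 for Ndufs1, -0.78 for Ndufa5, -0.76 for Ndufa6, -0.60 for Ndufs4 and -0.47 for the assembly factor Ndufaf4. In complex II they were -1.56 for Sdha (probe 11809) and -0.98 for Sdhc. They were -0.52 for Uqcr11, -0.54 for Uqcrfs1, -1.14 for Cox5b, -1.23 for Cox6b1, -1.48 for Cox6c and -1.07 for Cox7a2. In the ATP synthase they were 0.54 for Atp5g1, -1.21 for Atp5j and -1.09 for Atp5j2. Of these, Cox6b1 and Atp5j also passed after quantile normalization.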

How the results depend on the processing

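The comparisons with stroma kept their direction under every alternative run, with 51 to 59 members lower in the terminal end bud and 44 to 56 lower in the duct, arrays left out apart. Quantile normalization and the slides up to 193 moved the duct median to -0.85 and -0.84 in that order, and the slides from 196 on left 1 member higher in the terminal end bud. Terminal end bud against duct depended on the scaling. Quantile normalization gave 2 lower, 3 higher and a median of 0.073, with Ndufaf4 at 0.026. A common median absolute deviation gave 6 lower and 0 higher in limma, with 3 higher at an unadjusted p under 0.05. That unadjusted count has no share of all probes beside it. The slides up to 193 gave 11 lower. An early and late slide term gave 3 higher, and the slides from 196 on gave 2. The cause was not tested. The 2 sets of slides were chosen after seeing the data, and hold fewer arrays.

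With each array left out, members lower numbered 57 to 58 in the terminal end bud, 51 to 55 in the duct and 16 to 22 in their difference. Members higher in the difference were 1 to 2, the higher count coming without terminal end bud array 2 or 4. Medians were -1.01 to -0.86, -0.70 to -0.60 and -0.36 to -0.20 in the same order. Calls held without any 1 array for 59 of 61, 52 of 54 and 17 of 18 members. The labels carry no replicate numbers and pair no arrays. Neighbouring slides, each pair with 1 array of each structure, as a random block gave 20 lower and 1 higher in the difference, with a consensus correlation of 0.072.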
